A study of Nothobranchius furzeri with 20 samples.

Results

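Skin of male turquoise killifish (Nothobranchius furzeri) was compared between 7 and 5 weeks of age, the step around sexual maturity. The comparison was defined by the age in the labels and used the 5 libraries of 7 weeks and the 5 libraries of 5 weeks, 10 of the 20 libraries of the series. The other 10 libraries, of 10 and 14 weeks, entered the model that estimated the spread between libraries. All fish were of the inbred GRZ strain, with no treatment or allele given in the labels. RNA-seq of skin was given as read counts per gene ID, with totals of 22069927 to 35137022 counts among the 10 libraries. Whether each library came from its own fish is not in the labels, so the p-values refer to the variation of these libraries, which may be partly technical. Enough counts for a test were found in 19192 of 26739 gene IDs. None of the IDs could be paired with a gene name, so genes are described by level, size and consistency of change, with no function, and the tissue could not be checked against skin markers.

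The turquoise killifish lives in temporary ponds, grows fast and matures within weeks of hatching, and males take on bright body and fin colours as they mature. Fish skin is a mucous epidermis over a dermis that carries scales and layers of pigment cells. Sex steroids are known in several fish species to act on pigment cells and on the epidermis. In RNA of whole tissue, fewer cells of a type and less RNA per cell cannot be told apart.

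The estimated change between 7 and 5 weeks was small for most genes. The median log2 fold change was 0.01, the middle 50% of genes lay between -0.32 and 0.35, and the median size without sign was 0.33. The scaling of the libraries (TMM) assumes that most genes do not change. A median near 0 is therefore largely set by the scaling and is no finding about the skin. At an adjusted p under 0.05 (edgeR's quasi-likelihood test, Benjamini-Hochberg adjustment over all 19192 genes), 75 genes were higher and 190 lower at 7 weeks. The 265 called genes were 1.38% of those tested (0.391% higher and 0.99% lower), while 3346 genes, 17.4%, had an unadjusted p under 0.05. The unadjusted list leaned the other way from the called one, with 1775 genes higher and 1571 lower. The smallest adjusted p was 0.0024. DESeq2 called 1151 genes with a more even split of 543 higher and 608 lower, and edgeR on the 10 libraries alone called 141 higher and 194 lower.

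The called genes changed by about 2-fold, a size that the threshold for a call partly sets. Those called higher had a median log2 fold change of 0.95, with quartiles of 0.78 and 1.28 and a range of 0.50 to 4.90. Those called lower had a median of -0.95, with quartiles of -1.23 and -0.76, and the largest fall was 3.15 on the log2 scale. A change of at least 2-fold was estimated for 1987 of all genes (10.4%), 1123 higher and 864 lower, and 119 of these were called, 33 higher and 86 lower. The lower excess among the calls thus stood beside a higher excess among all genes past 2-fold. That higher excess lay past 4-fold, with 452 genes higher and 165 lower, against 671 higher and 699 lower at 2- to 4-fold. In 362 of the 452, 7 weeks replicate 3 held more than 50% of the summed level of its age.

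**Figure D1:**
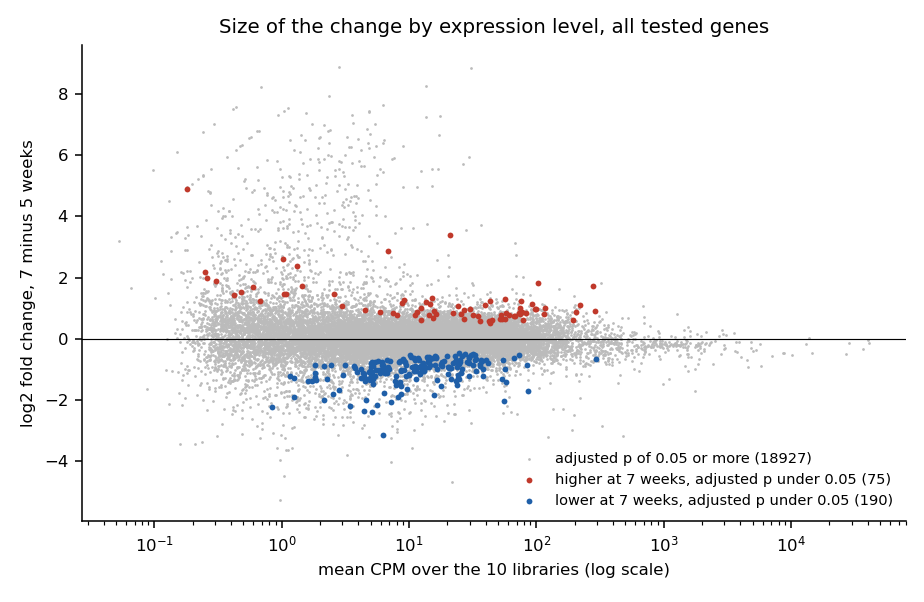
Log2 fold change of 7 minus 5 weeks against the mean CPM (a gene's counts relative to its library's TMM-scaled total) over the 10 libraries on a log scale, 1 point per tested gene, with the 75 genes called higher in red and the 190 called lower in blue. The called genes lie along the edges of the main band at about 2-fold, while grey points above a log2 fold change of 4 are not called.

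Among the genes with the largest estimated changes, 1 library held most of the summed level of the higher age in most cases. At least 4-fold higher values at 7 weeks were estimated for 452 genes, of which 6 were called, a share near the 1.38% of all tested genes. In 362 of the 452 (80.1%), 7 weeks replicate 3 held more than 50% of the summed level of the 5 libraries, and this library was the highest in 412. The summed level of these 452 genes was 7311 CPM in replicate 3, against 538, 965, 1661 and 3474 CPM in replicates 1, 2, 4 and 5. Replicate 3 also stood apart from most libraries of its age, with a Spearman's rho across genes of 0.908 to 0.964 against the other 4.

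Genes with large estimated decreases were also uneven over libraries, at the other age. Of 165 genes with at least 4-fold lower values at 7 weeks, 10 were called, a larger share than the 1.38% of all tested genes. In 123 of the 165 (74.5%), 5 weeks replicate 5 held more than 50% of the summed level at 5 weeks. The 5 weeks sums for the 165 genes were 202, 244 and 347 CPM in replicates 1, 2 and 3, against 7401 CPM in replicate 4 and 14732 CPM in replicate 5. Here 2 libraries of 5 weeks stood above the other 3, with replicate 5 the higher of them in sum.

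The share of genes with no overlap between the ages rose with the size of the change up to a log2 fold change of 2. It was lower at 2 to 4 and higher again above 4. It was 15 of 7429 (0.20%) below 0.25 and 798 of 4337 (18.4%) at 0.5 to 1. Among genes with a log2 fold change of 1 to 2 in size, 281 of 1370 (20.5%) showed no overlap between the ages, against 29 of 415 (6.99%) at 2 to 4 and 314 of 5439 (5.77%) at 0.25 to 0.5. The share in which 1 library held more than 50% of the higher age rose over the same classes, from 2.33% at 0.25 to 0.5 through 29.3% at 1 to 2 to 79.8% at 2 to 4. The median standard error of the fold change was 0.30, 0.62 and 1.35 in these classes. Above 4, where 198 of 202 genes were higher at 7 weeks, 39 genes (19.3%) did not overlap, 1 was called, and the median standard error was 1.95.

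**Figure D2:**
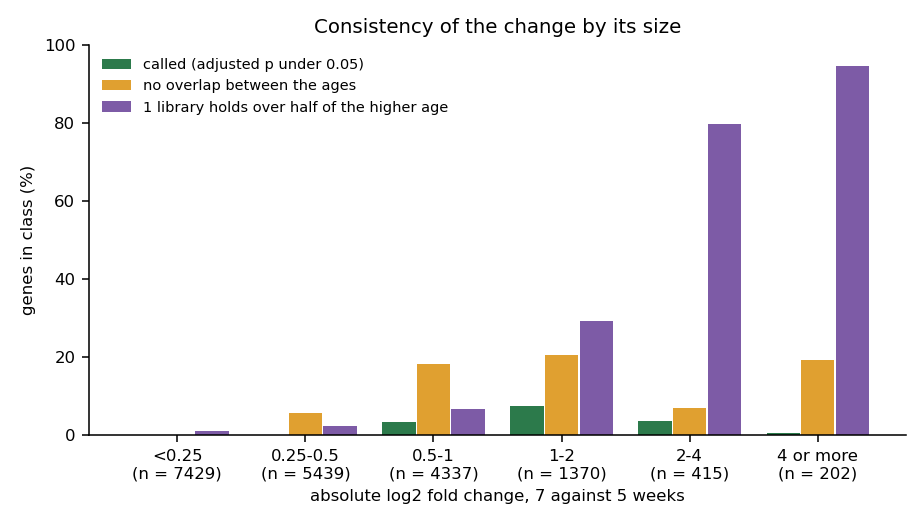
Share of genes in each class of absolute log2 fold change that were called (green), showed no overlap between the 7 and 5 weeks libraries (orange) or had more than 50% of the higher age's summed CPM in 1 library (purple). Called genes peak at 7.52% in the class of 1 to 2, and the purple bars reach 79.8% and 94.6% in the last classes.

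Over all tested genes, all 7 weeks libraries exceeded all 5 weeks libraries in 675 genes (3.52%) and lay below them in 801 (4.17%), together 7.69%. Most of these genes did not pass the adjusted test. The 1240 that did not had a median change of 0.66 in size on the log2 scale, with a median standard error of 0.24. Of the 265 called genes, 236 showed no overlap, 64 higher and 172 lower. The other 29 had the called direction in at least 22 of the 25 pairs of a 7 and a 5 weeks library.

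Called genes were of moderate abundance. Among genes with a mean of 10 to 100 CPM, 46 were higher and 115 lower (1.81% of 8909), and among those of 1 to 10 CPM, 12 were higher and 71 lower (1.17% of 7106). Below 1 CPM the split turned, with 10 higher and 1 lower (0.542% of 2031). At 100 CPM or more, 7 were higher and 3 lower (0.873% of 1146). None of the 100 most abundant genes was called by edgeR, 3 had an unadjusted p under 0.05, and DESeq2 called 1, limma voom 0 and limma voom with quality weights 1. Over all tested genes edgeR called 1.38%, a share close to 0 of 100, while 17.4% had an unadjusted p under 0.05. The 100 genes had a median change of 0.25 in size, against 0.33 over all tested genes. Of the 100, 2 reached 2-fold, against 10.4% of all tested genes, and 4 showed no overlap between ages, against 7.69%. In estimate, 15 of the 100 were higher at 7 weeks, whereas the median log2 fold change over all tested genes was 0.01. The 100 genes share their libraries and are not independent. In 7 weeks replicate 3 the 100 most abundant IDs took 34.9% of counts, against 41.6% to 46.4% in the other 7 weeks libraries. How far this library sets the count of 15 was not tested.

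The called genes took a small part of the RNA. The 75 higher genes summed to 2775, 2793, 2164, 2060 and 2304 CPM in 5 weeks replicates 1 to 5, and to 4807, 5269, 4311, 5049 and 4288 CPM in 7 weeks replicates 1 to 5. The 190 lower genes summed to 3631, 3724, 4320, 5381 and 4554 CPM at 5 weeks and to 2299, 2127, 2370, 2180 and 2434 CPM at 7 weeks. Neither pair of sums overlapped, a separation that the choice of the genes fixes. The 5 weeks libraries themselves were ordered, with replicates 1 and 2 nearest to the 7 weeks level for both lists and replicate 4 the farthest.

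Gene by gene, this order is seen in the lower genes, and in the higher genes mainly for replicates 1 and 2. The median 5 weeks level of the 190 lower genes exceeded the 7 weeks mean by 0.68, 0.68, 0.93, 1.26 and 1.05 log2 units in replicates 1 to 5. For the 75 higher genes the medians were -0.78, -0.83, -1.03, -1.05 and -0.97. Replicates 4 and 5 were the 2 highest of the 5 weeks libraries in 103 of the 190 lower genes (54.2%), against 23.4% of all tested genes, and replicates 1 and 2 were the 2 lowest in 122 (64.2%), against 22.0%. In the higher genes, replicates 1 and 2 were the 2 highest in 38 of 75 (50.7%), against 25.7% of all tested genes. At the other end, replicates 4 and 5 were the 2 lowest in 18 (24.0%), near the 21.4% of all tested genes. Replicates 3 and 4 were the 2 lowest in 21 (28.0%), against 14.6%. These values describe libraries that chose the genes and carry no test.

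Levels of the same genes in the older libraries lay on the 5 weeks side of the 7 weeks mean. Medians over the 75 higher genes were -0.88 to -0.66 log2 units in the 10 weeks libraries and -1.19 to -0.82 in the 14 weeks libraries. Medians over the 190 lower genes were 0.84 to 1.15 and 0.99 to 1.13. All these values are set against the same 7 weeks mean that entered the choice of the genes, so they are given side by side and not as a test.

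**Figure D3:**
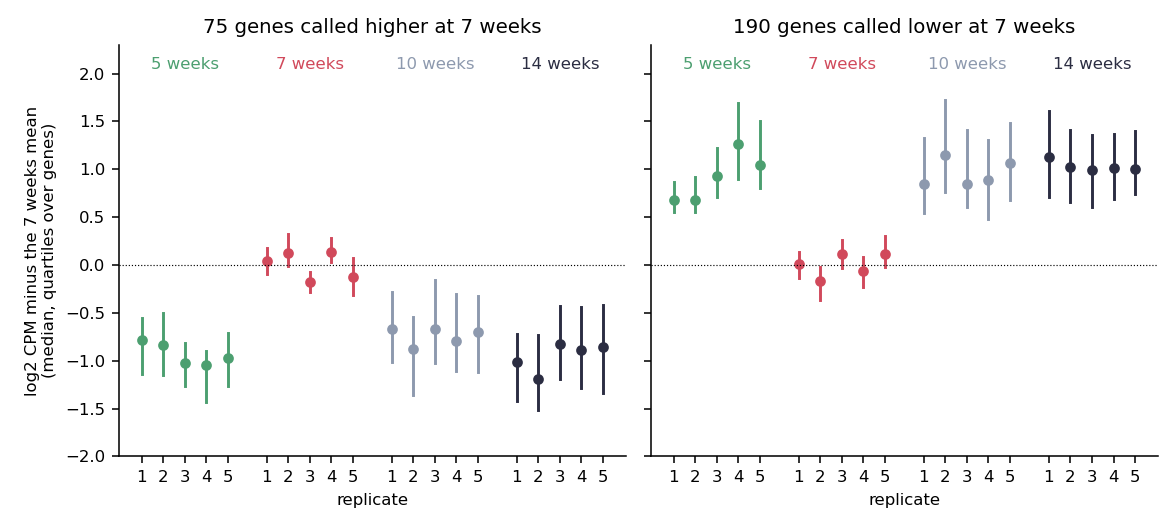
Log2 CPM minus the 7 weeks mean in each of the 20 libraries, as the median (point) and quartiles (line) over the 75 genes called higher and the 190 called lower at 7 weeks. Within 5 weeks, replicates 1 and 2 stand nearest to 0 in both panels, and the medians of 10 and 14 weeks lie on the 5 weeks side.

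Single genes are shown for the 2 rises and 2 falls that passed the threshold in each of the 10 fits that left out 1 library of 5 or 7 weeks, with the largest fold changes among such genes. The highest-ranked rise was that of Nfu_g_1_006505. Its level was 9.15, 7.11, 8.24, 10.1 and 6.86 CPM in 5 weeks replicates 1 to 5 and 18.8, 20.6, 14.1, 20.7 and 20.5 CPM in 7 weeks replicates 1 to 5. No 7 weeks library overlapped with those of 5 weeks, with replicate 3 the lowest of its age. The gene rose from 8.30 ± 1.37 to 18.9 ± 2.84 CPM (SD, n = 5 each), by 1.19 on the log2 scale with an SE of 0.19 and a 95% interval of 0.79 to 1.59 (edgeR, adjusted p = 0.0122). In older skin it was at 8.73 ± 1.49 CPM (10 weeks, SD, n = 5) and 7.30 ± 1.78 CPM (14 weeks, SD, n = 5), and the lowest 7 weeks library exceeded the highest of these, 11.1 CPM.

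Nfu_g_1_017597 was at 21.9, 23.0, 15.2, 13.8 and 18.1 CPM in 5 weeks replicates 1 to 5 and at 37.3, 42.6, 31.5, 38.4 and 27.6 CPM in 7 weeks replicates 1 to 5. The ages did not overlap, and replicates 1 and 2 were the highest of the 5 weeks libraries. It rose from 18.4 ± 4.04 to 35.48 ± 5.94 CPM (SD, n = 5 each), by 0.95 on the log2 scale with an SE of 0.16 (edgeR, adjusted p = 0.0122). At 10 and 14 weeks it stood at 12.3 ± 1.11 and 12.3 ± 1.17 CPM (SD, n = 5 each), narrower in spread than at 5 weeks.

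The largest fall by this rule was that of Nfu_g_1_005946, which also had the smallest adjusted p of all genes. It was at 15.5, 20.2, 23.0, 33.7 and 30.3 CPM in 5 weeks replicates 1 to 5 and at 7.17, 5.47, 5.72, 6.31 and 9.73 CPM in 7 weeks replicates 1 to 5. The 5 weeks libraries were spread by more than the 7 weeks libraries, with replicates 4 and 5 on top, yet the lowest of them was above all libraries of 7 weeks. The gene fell from 24.5 ± 7.44 to 6.88 ± 1.72 CPM (SD, n = 5 each), or -1.83 on the log2 scale with an SE of 0.22 and a 95% interval of -2.30 to -1.37 (edgeR, adjusted p = 0.0024). In older skin it was at 29.0 ± 5.30 CPM (10 weeks, SD, n = 5) and 29.0 ± 5.29 CPM (14 weeks, SD, n = 5).

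Nfu_g_1_009032 was at 12.2, 11.2, 11.999, 11.6 and 11.5 CPM in 5 weeks replicates 1 to 5 and at 3.24, 2.81, 6.05, 3.21 and 5.12 CPM in 7 weeks replicates 1 to 5. Here the 5 weeks libraries were close to each other, replicates 4 and 5 included. It fell from 11.7 ± 0.40 to 4.09 ± 1.42 CPM (SD, n = 5 each), or -1.52 on the log2 scale with an SE of 0.25 (edgeR, adjusted p = 0.0122). At 10 weeks it was at 7.91 ± 2.02 CPM and at 14 weeks at 10.8 ± 3.45 CPM (SD, n = 5 each), and 1 library of 10 weeks, at 5.18 CPM, lay within the 7 weeks range.

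**Figure D4:**
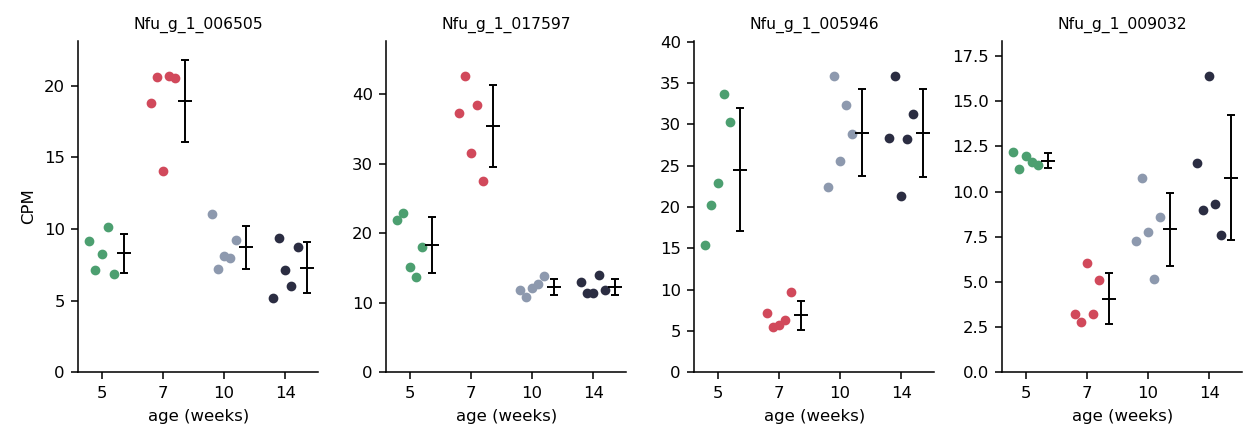
CPM of the 4 genes by age in weeks, 1 point per library, with the mean and SD (n = 5) as a bar to the right. Nfu_g_1_006505 and Nfu_g_1_017597 are higher at 7 weeks than in all 15 other libraries, Nfu_g_1_005946 is lower than in all 15, and Nfu_g_1_009032 is lower than in all 5 weeks libraries.

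The 5 weeks libraries fell apart into replicates 1, 2 and 3 on the one hand and replicates 4 and 5 on the other. Spearman's rho across genes was 0.972 to 0.988 among replicates 1 to 3 and 0.900 to 0.940 between these and replicates 4 and 5. Between replicates 4 and 5 it was 0.956. In the median, replicates 1 to 3 were also closer to the 7 weeks libraries, with a rho of 0.955 (0.905 to 0.971), than to replicates 4 and 5, at 0.916. The lowest values were those of 7 weeks replicate 3, with a rho of 0.919, 0.910 and 0.905 to 5 weeks replicates 1, 2 and 3. These values lay within the range between 5 weeks replicates 1 to 3 and replicates 4 and 5. So did the 0.9397 between 5 weeks replicate 2 and 7 weeks replicate 5, at the upper end of that range. The 5 weeks replicates 4 and 5 had a median rho of 0.906 (0.870 to 0.920) with the 7 weeks libraries. A split was also seen within 7 weeks. There rho was 0.965 to 0.972 among replicates 1, 2 and 4, and 0.964 between replicates 3 and 5. Across these sets it was 0.908 to 0.954. Genes in these correlations are not independent replicates, and the values describe the libraries without a test.

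The spread was carried by replicates 4 and 5. The biological coefficient of variation, the relative spread between libraries beyond counting noise, was 42.6% over the 5 libraries of 5 weeks and 42.2% over those of 7 weeks. Without replicates 4 and 5 it was 24.0% at 5 weeks, and without any other pair 38.8% to 45.8%. At 7 weeks it was lowest, at 29.9%, without replicates 3 and 5, and 37.1% to 48.3% without other pairs. The median SD of log2 CPM over tested genes was 0.39 at 5 weeks and 0.36 at 7 weeks, and 54.1% of genes had more spread at 5 weeks. With replicates 4 and 5 left out this share was 28.9%, and without any other pair of 5 weeks libraries it was 43.9% to 57.6%.

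A group of genes stood at far higher levels in replicates 4 and 5. By a rule set on these values, 116 genes were at least 10-fold higher in both replicates 4 and 5 than in each of replicates 1 to 3, on CPM + 0.5, and 0 were at least 10-fold lower. They summed to 54.8, 53.0 and 53.9 CPM in replicates 1 to 3, 7409 CPM in replicate 4 and 16141 CPM in replicate 5. At 7 weeks they summed to 81.8, 677, 2528, 199 and 1265 CPM in replicates 1 to 5, so their level varied there as well. None of the 116 was called between the ages by edgeR, DESeq2 or limma voom, with or without quality weights, and 2 had an unadjusted p under 0.05 in edgeR, against 1.38% called and 17.4% under 0.05 among all tested genes. A 10-fold split within 5 weeks, by which they were picked, itself gives a large standard error, so these counts say nothing further about the genes. Their median log2 fold change was -2.02 with a median standard error of 1.93.

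Other measures of the libraries did not separate the ages. Total counts, IDs at 1 CPM or more and the share of counts in the 100 most abundant IDs gave two-sided exact permutation p-values of 0.286, 0.365 and 0.190 (adjusted p = 0.487, 0.487 and 0.487). The distance of a library from its age gave a permutation p-value of 0.889 (adjusted p = 0.889). Each distance was taken from the other libraries of the same age. The distances thus depend on each other, and their p-value is not exact. IDs at 1 CPM or more numbered 16027 to 16490 at 5 weeks and 15955 to 17070 at 7 weeks, with 7 weeks replicate 3 the highest. The 100 most abundant IDs took 42.4% to 51.7% of counts at 5 weeks and 34.9% to 46.4% at 7 weeks, with the lowest share in the same replicate 3.

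The number of calls rested on single libraries of both ages. Without 5 weeks replicate 4 or 5 the 265 calls became 31 and 44, and without replicate 3 they became 66, whereas without replicate 1 or 2 they were 263 and 292. Without 7 weeks replicates 1, 2, 3 and 4 the counts were 51, 27, 160 and 19, and without replicate 5 the count was 187. Genes with an unadjusted p under 0.05 in edgeR varied less, at 2582 to 3475 in the same 10 fits against 3346 with all libraries. Of the 265 genes, 15 were called in all 10 of these fits, 13 lower and 2 higher, 197 (74.3%) in at most 4, and 26 in none. The 15 had no overlap between ages, as had 236 of the 265. They had means of 4.15 to 44.0 CPM over the series and changes of 0.95 to 1.83 in size on the log2 scale. All 15 were also called by DESeq2, by limma voom and in edgeR on the 10 libraries alone, against 260, 189 and 161 of the 265. In edgeR without both 5 weeks replicates 4 and 5, 1 of the 15 was called, and 1 of the 265. These fits use the same counts that picked the 15, so they are no separate support.

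With the number of 5 weeks libraries held the same, the count still depended on which of them were kept. Each of these 10 fits had 3 libraries at 5 weeks. Without replicates 1 and 2 the count was 792, 334 higher and 458 lower. Without replicates 1 and 3 it was 63, without 2 and 3 it was 61, and in the 7 fits that left out replicate 4, replicate 5 or both it was 1 to 12. Without replicates 4 and 5 it was 2. Genes with an unadjusted p under 0.05 in edgeR varied less, from 1960 without replicates 3 and 5 to 3971 without replicates 1 and 2. Without replicates 4 and 5 they numbered 1965, against 3346 with all libraries. Nfu_g_1_005946 was called in all 10 of these fits, and each of the other 3 named genes in 3.

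The direction of the called genes held in all these fits, and their size moved in both lists. All 190 lower and all 75 higher genes kept their sign in each fit that left out 1 library, or a pair at 5 weeks. Of these 265 genes, 236 had no overlap between the ages, so leaving libraries out could hardly turn their sign. The kept direction is therefore no separate support. The median log2 fold change of the 190 genes was -0.77 without replicates 4 and 5 and -1.15 without replicates 1 and 2, against -0.95 with all libraries. For the 75 genes the medians were 0.94, 1.09 and 0.95 in the same order, and the lowest, 0.84, was found without replicates 3 and 4. The genes were chosen with all libraries, which favours their fold changes there.

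**Figure D5:**
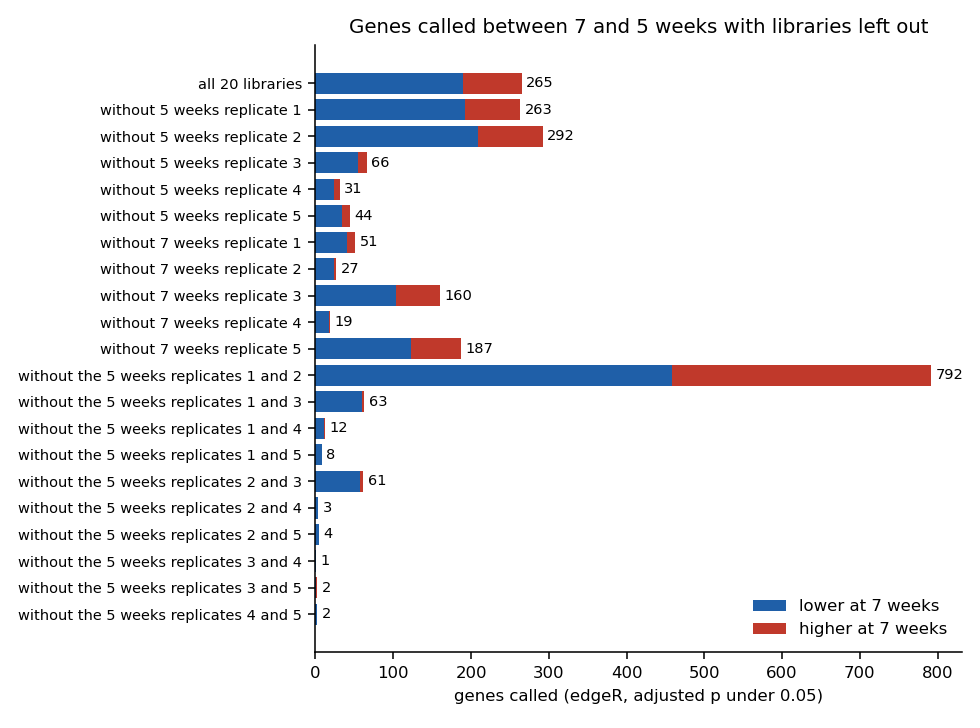
Genes called between 7 and 5 weeks (edgeR, adjusted p under 0.05; lower in blue, higher in red) with all 20 libraries, without 1 library of either age and without each pair of 5 weeks libraries. The count runs from 1 to 792, and it is 12 or lower in each fit on 3 libraries of 5 weeks that lacked replicate 4 or 5.

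The precision sets what the comparison can and cannot show. The median standard error of a log2 fold change was 0.32 over tested genes and 0.20 over called genes. These errors rest on the spread in all 20 libraries, not only in those of 5 and 7 weeks. The biological coefficient of variation was 42.6% at 5 weeks and 42.2% at 7 weeks, but 51.8% at 10 weeks, 66.6% at 14 weeks and 52.1% shared. In edgeR on the 10 libraries alone, 4189 of 18052 genes had an unadjusted p under 0.05, against 3346 of 19192. At the median standard error a change of 1.28 on the log2 scale, 2.43-fold, was needed for a call. For 11469 genes (59.8%) the difference between the age means was smaller than the SD among the 5 weeks libraries. That SD is of single libraries and not the error of a difference between means. Many genes would fall under it with no difference between the ages, so this share does not measure the precision. The 95% interval of the fold change lay wholly within 2-fold for 9198 genes (47.9%). For the other 9994 genes a change of 2-fold or more, in at least 1 direction, was within the interval, so a missing call there does not show a stable level.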

How the data were processed

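The authors deposited raw counts per gene ID, and counts were used as deposited. Per the submitters' processing notes, the tools included featureCounts 1.4.6-p4, STAR 2.4.1d and CASAVA 1.8.2. Libraries were made from total RNA with a TruSeq RNA kit, per the labels' protocols. The sources used here give neither genome build nor annotation nor strand setting, so the counts of a gene may hold reads of an overlapping, antisense or near-identical one. A deposited RPKM table was not used here. None of the 26739 IDs matched the RefSeq gene table (assembly NfurGRZ-RIMD1), and no lists of named genes or markers were tested.

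Genes were kept by filterByExpr (19192 IDs, 99.89% to 99.98% of counts). The fit (edgeR 4.0.16, R 4.3.3; TMM, glmQLFit, glmQLFTest) was of 4 age means in all 20 libraries, leaving 16 residual degrees of freedom, and p-values were Benjamini-Hochberg adjusted, with calls under 0.05. Standard errors are |log2 fold change|/√F, and 95% intervals use its t distribution. CPM values use TMM factors, and log2 CPM a prior count of 2. Replicates were numbered in accession order and pair nothing. Named genes needed an adjusted p under 0.05, 1 CPM or more in the higher age and no overlap (229 genes), ranked by the number of 10 leave-one-out fits with a call and then by size, with 2 taken in each direction.

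Alternatives were other factors, filters, DESeq2 1.42.0, limma 3.58.1 voom, the 10 libraries alone and libraries left out. The steps were tested on simulated data, in which each gene had the same spread in all libraries. Of 100 genes set to change 2-fold, 15 were called in the right direction, and of 100 set to change 4-fold, 67. Among the genes set not to change, 6 were called. The comparison, lists and rules were chosen with earlier results of these data known. Library totals set the counting precision.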

Additional observations from a re-analysis of the deposited data

Results flagged for a closer look

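In 20 groups of 5 values, each looked at for a sample far from the others, 2 were picked out, and chance picks out about 1 in 20. Both concern 7 weeks replicate 3. Its level of Nfu_g_1_006505 was 14.1 CPM, where the other 4 libraries of 7 weeks were at 18.8 to 20.7 CPM. Its distance (1 minus Spearman's rho) to the mean of the remaining 7 weeks libraries was 0.0649, against 0.0236 to 0.0313 for the others.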

How the results depend on the processing

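Against 265 calls (75 higher, 190 lower, 119 past 2-fold), leaving out 1 library of 5 or 7 weeks gave 19 to 292 (2 to 83 higher, 17 to 209 lower, 15 to 168 past 2-fold). DESeq2 called 1151 (543 higher, 608 lower, 497 past 2-fold) and limma voom with quality weights 1103 (535, 568 and 298). Without a filter 46 were higher, and with only the 10 libraries 141. Other factors, the stricter filter, robust dispersion and limma voom kept all these counts within 1.5 times. Without a pair of 5 weeks libraries the counts of all, higher, lower and 2-fold calls were 792, 334, 458 and 466 (replicates 1 and 2), 63, 3, 60 and 55 (1 and 3), 12, 1, 11 and 11 (1 and 4), 8, 0, 8 and 8 (1 and 5), 61, 4, 57 and 54 (2 and 3), 3, 0, 3 and 3 (2 and 4), 4, 0, 4 and 4 (2 and 5), 1, 0, 1 and 1 (3 and 4), 2, 1, 1 and 2 (3 and 5) and 2, 0, 2 and 2 (4 and 5). Among these pair fits, genes with no overlap numbered 3919 without replicates 1 and 2, 2248 without 1 and 4, 2280 without 1 and 5, 2278 without 2 and 3, 2326 without 2 and 4, 2369 without 2 and 5, 2409 without 3 and 4 and 2695 without 4 and 5, against 1476. Fewer libraries make an overlap rarer by construction. The median log2 fold change of 0.00907 was 0.0324, 0.0316, 0.0342, 0.0402, 0.0313 and 0.0622 without replicates 1 and 4, 1 and 5, 2 and 4, 2 and 5, 3 and 4 and 4 and 5, and -0.0143 to 0.0280 on leaving out 1 library. Genes with more spread at 5 weeks numbered 5683 without replicates 4 and 5, against 10392 with all libraries. Without any other pair of 5 weeks libraries they numbered 8647 to 11328. By alternatives added once the data had been seen, edgeR on only the 5 and 7 weeks libraries without 5 weeks replicates 4 and 5 called 2. In that fit 3439 of 18473 genes had an unadjusted p under 0.05, against 3346 of 19192 in the main fit. Without pairs of 7 weeks libraries the calls were 0 (replicates 1 and 2), 14 (1 and 3), 0 (1 and 4), 1 (1 and 5), 8 (2 and 3), 0 (2 and 4), 1 (2 and 5), 8 (3 and 4), 118 (3 and 5) and 1 (4 and 5). In the fits with 0 calls, 2298 to 2617 genes had an unadjusted p under 0.05. The cause of these changes was not tested beyond the libraries left out. The 4 named genes kept their direction in every setting run, which their choice for no overlap between the ages nearly fixes. Without pairs of 7 weeks libraries they passed in 4 (Nfu_g_1_006505), 1 (Nfu_g_1_017597), 7 (Nfu_g_1_005946) and 4 (Nfu_g_1_009032) of 10 fits. Nfu_g_1_005946 passed in all planned ones, and the other 3 missed the threshold in 7 of the 10 fits without a pair of 5 weeks libraries, with adjusted p-values of up to 0.128 in edgeR. None of the 4 passed in edgeR on only the 5 and 7 weeks libraries without 5 weeks replicates 4 and 5 (adjusted p = 0.0729 to 0.110). No paired analysis was possible because the labels carry no replicate numbers that the ages share.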

Other observations

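limma voom with quality weights, which estimates 1 weight per library from the residuals, gave 5 weeks replicates 1, 2 and 3 weights of 2.01, 1.65 and 2.11 and replicates 4 and 5 weights of 0.587 and 0.784. The 7 weeks libraries had weights of 0.913 to 1.66, with replicate 3 the lowest. Older libraries, which enter the same fit, had weights of 0.486 to 3.31 at 10 weeks and 0.254 to 1.04 at 14 weeks. Which of the weights changed the number of calls was not tested. With these weights 185 of the 190 genes called lower and all 75 called higher in edgeR passed the threshold, among 1103 genes in all.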
